A study of Mus musculus with 5 samples.

Results

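Among the genomic regions bound by NEUROD2 in the embryonic mouse cortex, 3192 regions carried the symmetric, GC-centred E-box CAGCTG, lacked the other hexamers that NeuroD factors are known to bind (CAGATG and CATATG), and lay away from gene starts. The 3 hexamers are called NeuroD-type E-boxes here. The regions were found by joining the peaks of 3 NEUROD2 antibodies that shared at least 1 bp and keeping the 32261 regions with peaks of at least 2 antibodies. A region was a member when its midpoint lay between 1000 and 50000 bp from the closest transcription start site (TSS) and its central 200 bp held at least 1 CAGCTG. Regions with CAGATG (or CATCTG on the other strand) or with CATATG in those 200 bp were left out. Members made up 9.89% of all regions and 16.0% of the 19914 regions at that distance from a TSS.

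Chromatin was immunoprecipitated from the cerebral cortex of BALB/c embryos at E14.5, and the precipitated DNA was sequenced (ChIP-Seq). The group labelled NEUROD2 held 3 libraries, 1 for each antibody against NEUROD2 (ab1, ab2 and ab3). The number in each library title was taken as the number of its antibody. The group labelled GFP held 2 libraries made with antibodies against green fluorescent protein, which these embryos do not make, and the authors used them as controls when they called peaks. The labels name no mutation or treatment, each library came from pooled litters per the methods of the study, and the tissue holds progenitors, newborn neurons and non-neural cells together.

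NEUROD2 is a basic helix-loop-helix (bHLH) transcription factor of glutamatergic neurons. bHLH factors bind as dimers to E-boxes, hexamers of the form CANNTG, and each partner of the dimer reads 1 side of the site. NeuroD factors dimerize with broadly expressed E proteins, whereas Id proteins, which lack the basic region, hold E proteins away from DNA. CAGCTG reads the same on both strands, so both sides of the site carry the same letters.

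The central 200 bp of 7 members are given first, because the comparisons below turn on the hexamer and on its surroundings. Letters are from the plus strand of GRCm38 (mm10) as held by RefSeq, and capitals mark CAGCTG. The Flrt1 region had the highest mean score over the 3 antibodies, and the regions assigned to Fyn, Id4, Slit1 and Ephb1 were the strongest of 4 neuronal gene lists described further on. The last 2 windows hold the most CAGCTG of all members.
Flrt1, chr19:7148319-7148518: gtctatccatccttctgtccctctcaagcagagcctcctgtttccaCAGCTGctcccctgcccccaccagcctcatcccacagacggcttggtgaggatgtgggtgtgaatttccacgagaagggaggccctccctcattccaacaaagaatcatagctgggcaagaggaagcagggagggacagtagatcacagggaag
Fyn, chr10:39321514-39321713: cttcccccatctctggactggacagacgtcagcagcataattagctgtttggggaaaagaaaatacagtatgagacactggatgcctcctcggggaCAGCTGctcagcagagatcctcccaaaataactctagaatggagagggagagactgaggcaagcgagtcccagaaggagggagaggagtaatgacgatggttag
Id4, chr13:48046350-48046549: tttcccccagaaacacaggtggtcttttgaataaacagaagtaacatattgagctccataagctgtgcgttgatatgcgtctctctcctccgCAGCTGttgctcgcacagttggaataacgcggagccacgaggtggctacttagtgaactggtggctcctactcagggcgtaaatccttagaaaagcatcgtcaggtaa
Slit1, chr19:41754842-41755041: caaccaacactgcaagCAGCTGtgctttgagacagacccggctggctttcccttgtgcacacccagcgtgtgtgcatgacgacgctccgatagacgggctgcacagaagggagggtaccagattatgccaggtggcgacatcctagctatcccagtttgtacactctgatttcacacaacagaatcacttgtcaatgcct
Ephb1, chr9:102231292-102231491: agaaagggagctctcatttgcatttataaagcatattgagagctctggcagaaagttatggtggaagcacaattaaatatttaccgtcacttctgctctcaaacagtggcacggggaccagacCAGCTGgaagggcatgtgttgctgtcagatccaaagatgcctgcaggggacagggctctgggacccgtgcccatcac
Cck, chr9:121541579-121541778: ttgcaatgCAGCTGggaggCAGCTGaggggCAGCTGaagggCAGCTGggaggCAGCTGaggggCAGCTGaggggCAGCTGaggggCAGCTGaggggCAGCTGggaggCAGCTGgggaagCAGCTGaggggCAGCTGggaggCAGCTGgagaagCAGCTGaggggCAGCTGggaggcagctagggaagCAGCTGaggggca
Tulp1, chr17:28388640-28388839: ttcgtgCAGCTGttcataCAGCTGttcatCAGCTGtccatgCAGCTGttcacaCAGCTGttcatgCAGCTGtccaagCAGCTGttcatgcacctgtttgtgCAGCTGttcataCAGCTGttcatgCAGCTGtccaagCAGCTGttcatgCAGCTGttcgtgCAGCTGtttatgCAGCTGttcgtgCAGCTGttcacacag

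A single CAGCTG stood in the Flrt1, Fyn, Id4, Slit1 and Ephb1 windows, whereas the windows near Cck and Tulp1 were arrays with 16 and 15 copies. Shorter stretches around the hexamer are given for 6 further members, the last of which, near Cdc42ep3, stands for members close to the median ab1 score.
Dusp14, chr11:84048723-84048762: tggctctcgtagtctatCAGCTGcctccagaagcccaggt
Plxna4, chr6:32702530-32702569: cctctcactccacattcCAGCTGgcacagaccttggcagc
Hes1, chr16:29883259-29883298: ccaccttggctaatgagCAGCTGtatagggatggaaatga
Pcp4, chr16:96472964-96473003: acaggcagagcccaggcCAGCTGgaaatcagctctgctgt
Mef2c, chr13:83481416-83481455: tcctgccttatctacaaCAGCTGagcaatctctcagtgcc
Cdc42ep3, chr17:79339560-79339599: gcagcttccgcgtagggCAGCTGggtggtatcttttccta

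About 1 in 5 members was bound with ab3. A peak of ab1 was present in 3190 members and a peak of ab2 in 3189, as in 19902 and 19884 of all 19914 regions at this distance, because ab3 had few peaks and the rule asked for 2 antibodies. A peak of ab3 was present in 690 members, or 21.6% (95% Wilson interval 20.2 to 23.1), against 24.6% of all 19914 regions at this distance. All 3 antibodies marked 685 members, and 2502 had ab1 and ab2 only. The score of a peak is 10 × −log10 of the p-value that the peak caller MACS assigned to it. It rises with sequencing depth, and it is not scaled between libraries. The median member scored 268.3 with ab1 (quartiles 136.7 and 594.2), 131.2 with ab2 (76.5 and 276.8) and 89.5 with ab3 (64.7 and 157.3). Over the whole lists the number of peaks fell in the same order, from 51841 with ab1 through 35310 with ab2 to 7470 with ab3. The peak lists carry no read totals, and the scores were not scaled to the totals that the study gives. Each antibody was used in 1 library, and the tests below therefore measure the spread between regions, not between embryos or immunoprecipitations.

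The highest scores lay at the upper end of the scale, where 65 members reached at least 3100 with ab1, 8 with ab2 and none with ab3. The region in an intron near Flrt1, which encodes a fibronectin and leucine-rich repeat transmembrane protein, scored 3100 with ab1, 3100 with ab2 and 1603 with ab3. Its peak spanned chr19:7146310-7150527, and the TSS of Flrt1 lay 42690 bp away. A region in an intron near Atp9a, a phospholipid flippase gene, scored 3100, 3100 and 1080 at chr2:168676982-168680094. The region at Lrpap1, which encodes a chaperone of lipoprotein receptors, scored 3100, 3100 and 1048 at chr5:35137233-35142464. A region over an exon of Dusp14, a dual-specificity phosphatase gene, scored 3100, 3100 and 806 at chr11:84047969-84049518. They belong to the 10 members with the highest mean log10 score, and equal values of 3100 with ab1 cannot be ordered.

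Members were compared with 3 other classes of regions at the same distance from a TSS. In 6100 regions CAGATG was the only NeuroD-type E-box, in 1020 regions CATATG was, and 2338 regions held no CANNTG hexamer in their central 200 bp. An ab3 peak was present in 23.9% of the CAGATG regions (22.8 to 25), 23.1% of the CATATG regions (20.7 to 25.8) and 26.4% of the E-box-free regions (24.7 to 28.3). In a logistic model over all 19914 regions, the odds of an ab3 peak in members were 0.88 times those in CAGATG regions (0.79 to 0.97, adjusted p = 0.0326 over 77 contrasts, n = 19914 regions). Against CATATG regions the odds ratio was 0.92 (0.77 to 1.08) and did not pass the threshold of 0.05. The difference from CAGATG regions shrank and no longer passed with peaks scoring at least 100 (odds ratio 0.97) and with a central window of 100 bp (0.93). With coding TSSs alone (0.871), at 1 to 10 kb (0.891) and at 10 to 50 kb (0.877), each with fewer regions, the ratio was close to 0.88 and did not pass. With every peak of ab1 alone, or of ab2 alone, taken as a region, the ratio was 0.81 and 0.83 and passed, as did the contrast with CATATG regions (0.83 in both). In each alternative p was adjusted over the contrasts of that setting, fewer than the 77 of the main fit.

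Scores hardly separated the E-box classes from each other. With ab1, the geometric mean score of members was 0.99 times that of CAGATG regions (0.95 to 1.04) and 1.02 times that of CATATG regions (0.95 to 1.09), and neither contrast passed the test (adjusted p = 0.798 and 0.719, n = 3190 members). With ab2, members scored 0.95 times as high as CAGATG regions (0.91 to 0.99, adjusted p = 0.0326, n = 3189 members). Among regions with ab2 and ab3, where ab1 took no part, that ratio was 0.996 and did not pass. It did not pass under 5 other settings either, where it ran from 0.939 at 1 to 10 kb to 0.982 with scores of at least 100. With ab3, the ratio was 1.03 against both classes, and neither passed (adjusted p = 0.424 and 0.587, n = 690 members).

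E-box-free regions scored higher than members, and they were wider. The ratio of members to E-box-free regions was 0.83 with ab1 (0.79 to 0.88, adjusted p = 7.06e-10, n = 3190 members) and 0.82 with ab2 (0.78 to 0.87, adjusted p = 1.06e-12, n = 3189 members), whereas the ratio with ab3 was 0.94 and did not pass (0.87 to 1.01). Among regions with ab2 and ab3, where ab1 took no part, the ab2 ratio was 0.902 and did not pass either. The odds of an ab3 peak were 0.77 times those of E-box-free regions (0.68 to 0.87, adjusted p = 0.000165, n = 19914 regions). This ratio did not pass with scores of at least 100 (0.891) or at 1 to 10 kb (0.805). The median member spanned 808 bp, and members were 0.74 times as wide as E-box-free regions on average (0.73 to 0.76, adjusted p = 1.13e-162, n = 19914 regions). With GC content, distance to the TSS and width in the model, the direction turned, and members had 1.34 times the ab1 score, 1.27 times the ab2 score and 1.56 times the odds of an ab3 peak (adjusted p = 2.77e-32, 2.15e-25 and 1.29e-09, n = 3190, 3189 and 3192 members). Width is itself made by the peak calling, and its part in either direction was not tested.

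**Figure D1:**
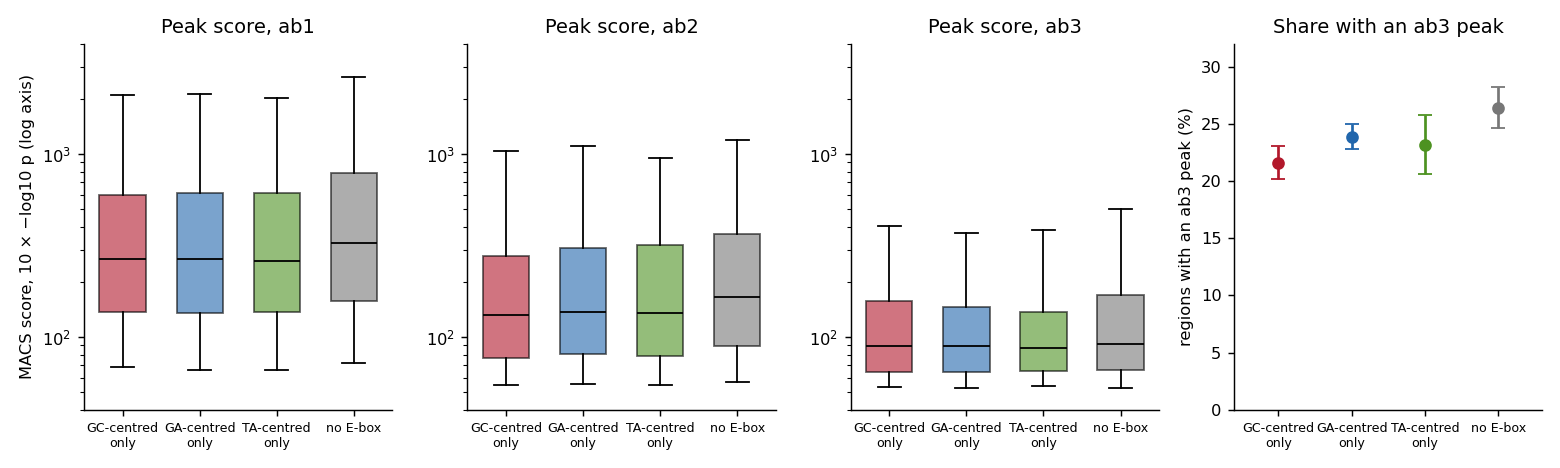
Peak scores with each antibody (boxes from the lower to the upper quartile with the median, whiskers from the 5th to the 95th percentile, log axis) and the percentage of regions with an ab3 peak (points, with 95% Wilson intervals) in the 4 classes. The boxes of the 3 E-box classes overlap almost completely, the E-box-free class sits higher with ab1 and ab2, and the ab3 share runs from 21.6% in members to 26.4% in E-box-free regions.

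When peaks of each antibody were classified alone by their own midpoints, with no joining, the share of GC-only peaks among peaks 1000 to 50000 bp from a TSS was nearly constant. It was 16.7% of 31846 peaks with ab1, 16.5% of 21825 with ab2 and 15.6% of 5094 with ab3, or 16.3% ± 0.604 (SD, n = 3 antibodies). CAGATG-only peaks made up 30.8%, 30.6% and 33.7% (31.7% ± 1.75). Peaks without any E-box made up 11.3%, 11.4% and 7.40% (10.0% ± 2.28). CAGATG-only peaks were the more frequent class with each of the 3 antibodies, but an exact sign-flip permutation over 3 antibodies cannot give a two-sided p below 0.25. Among regions marked by a single antibody, which took no part in choosing the members, the GC-only share was 17.6% of 11404 for ab1, 17.5% of 1643 for ab2 and 18.9% of 74 for ab3 (11.6 to 29.3).

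Within the central window, where the rule did not fix the place of the hexamer, CAGCTG lay towards the midpoint. Of the 4241 central hexamers, 29.4% lay within 25 bp of the midpoint and 17.7% at 75 to 100 bp, a step that the edge of the window shortens slightly. Away from the midpoint, in 50-bp steps between 500 and 1000 bp, about 3 hexamers were found per 100 members. The counts reached 39.8 and 38.6 per 100 members in the 50 bp on either side of the midpoint, a height that the rule sets by asking for at least 1 copy in 200 bp. Just outside that window, between 100 and 150 bp on either side, where the rule asked for nothing, 7.55 and 7.68 copies per 100 members remained. The copy closest to the midpoint lay a median of 37 bp away (quartiles 17 and 60), with a median of 39 bp in the 685 members marked by all 3 antibodies and 36 bp in the 2507 others.

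**Figure D2:**
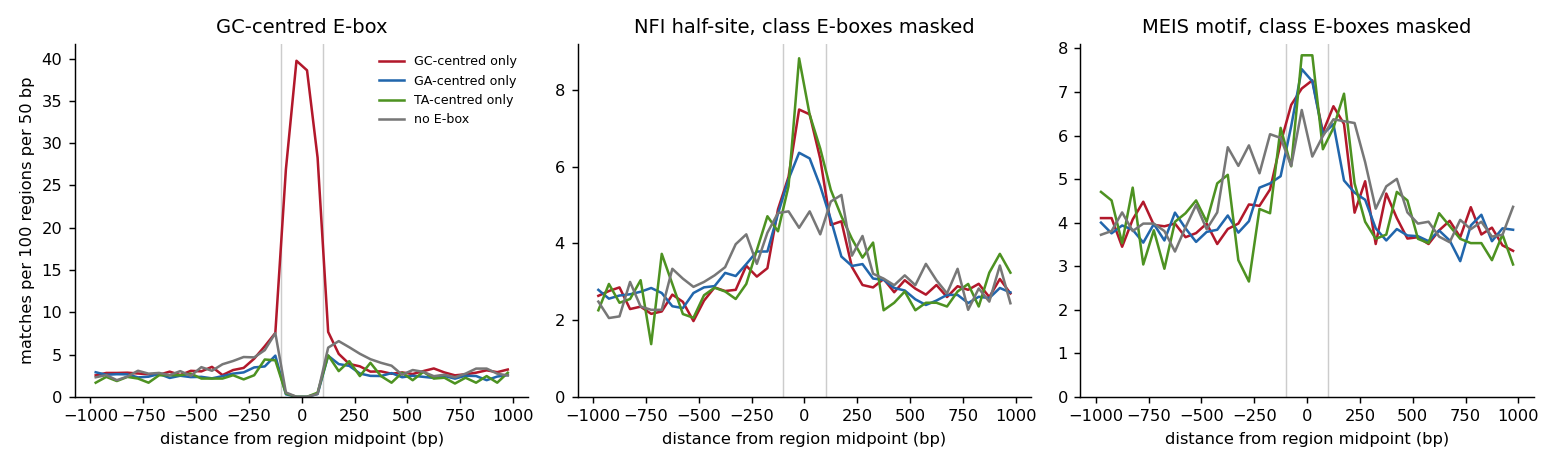
Matches per 100 regions in 50-bp steps against the distance from the region midpoint (bp), for the GC-centred E-box, the NFI motif and the MEIS motif, in the 4 classes, with grey lines at the edges of the central 200 bp. The GC-centred E-box of members peaks at 39.8 per 100, a height set by the rule, while the NFI motif rises in members from about 3 per 100 to 7.49 and 7.36 beside the midpoint, and less in E-box-free regions.

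The bases next to the hexamer were compared between the centre and the flanks of the same members. Flanks were windows of 200 bp centred 1000 bp to either side of the midpoint, and 10.8% of them held a CAGCTG. The base after the hexamer was read outward on both strands, which gave 8482 ends of central hexamers and 1498 ends of flank hexamers. A followed the hexamer at 10.5% of central ends against 21.4% of flank ends, a difference of -10.9 percentage points (95% Newcombe interval -13.1 to -8.77). C followed at 31.5% against 26.6% and G at 31.4% against 27.4%, and both intervals of the difference excluded 0. T followed at 26.6% against 24.6% (difference from -0.43 to 4.32). At the next position, A stood at 15.7% against 24.1%, C at 31.2% against 23.9% and T at 29.4% against 23.4%, whereas G was lower in the centre, at 23.7% against 28.6%. At the third position, A differed by 0.19 percentage points (-2.26 to 2.54) and the interval for G also included 0. C was still higher there (3.27, 0.94 to 5.47) and T lower (-3.35, -5.76 to -1.05). At the fourth, A was lower (-3.24, -5.61 to -0.97) and C higher (3.37, 0.87 to 5.78), while the intervals for G and T included 0. In the 685 members marked by all 3 antibodies, with fewer flank hexamers, A after the hexamer again differed (-10.7 percentage points, -15.8 to -6.22), whereas the intervals for C (1.69, -3.99 to 6.97) and G (4.54, -0.89 to 9.43) included 0.

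Thus CAGCTGA was the least frequent heptamer in the centre, and the rarest pair had A outside both ends, at 1.20% of central hexamers against 3.47% of flank hexamers. The commonest pair was C at one end and G at the other, at 21.2% against 15%. With all 3 antibodies, the intervals of both pair differences included 0. With only the hexamer closest to each midpoint, so that an array counted once, the share of A was 10.4%. Peaks of ab3 were then set against the outer bases. In the 2486 members with a single CAGCTG, G in place of A gave 0.77 times the odds of an ab3 peak (0.61 to 0.97), which did not pass (adjusted p = 0.126 over 32 contrasts, n = 2486 members), and the contrasts for C and T did not pass either. No contrast of the outer bases with a score passed without covariates. With GC content and width in the model, ab1 scores were higher with C than with A (1.12-fold, 1.03 to 1.21, adjusted p = 0.0235, n = 2486 members) and with T than with A (1.11-fold, adjusted p = 0.0424), as were ab2 scores with T (1.11-fold, adjusted p = 0.0257, n = 2484 members), whereas the contrasts with an ab3 peak again did not pass.

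Most members had 1 CAGCTG in the central 200 bp. The number was 1 in 2486 members, 2 in 555, 3 in 88 and 4 or more in 63. Among those groups, an ab3 peak was present in 21.2%, 22.5%, 20.5% and 30.2% of members, with an interval of 20.2 to 42.4 for the smallest. The median ab1 score was 270.8, 249.1, 292.6 and 354.2. Per additional hexamer, the odds of an ab3 peak were multiplied by 1.09 (0.96 to 1.25) and the ab1 score by 0.99 (0.93 to 1.04), and neither passed. With GC content and width in the model, both factors exceeded 1, at 1.52 for the odds (1.31 to 1.76, adjusted p = 5.37e-07, n = 3192 members) and 1.14 for the score (1.09 to 1.20, adjusted p = 3.92e-06, n = 3190 members). Regions with more copies were narrower, with a median width of 824 bp at 1 copy and 709 bp at 4 or more.

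**Figure D3:**
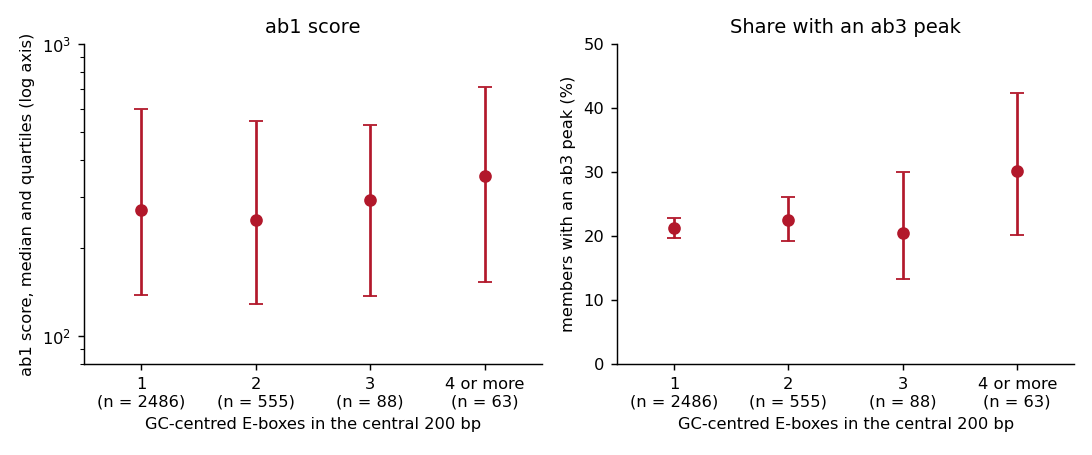
Median ab1 score with quartiles (log axis) and percentage of members with an ab3 peak (95% Wilson interval), by the number of GC-centred E-boxes in the central 200 bp. The medians run from 249.1 to 354.2 within wide quartiles, and the interval of the group with 4 or more copies overlaps the others.

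A small set of members held dense arrays of CAGCTG. At least 4 copies stood in 63 of 3192 central windows (1.97%, 1.55 to 2.52), which the rule had required to hold 1. Among the 688 flank windows that held at least 1 copy, 2 had 4 or more (0.291%, 0.0798 to 1.05). Of the 63, 50 had no hexamer in sequence marked as repeats and 2 had every hexamer in it. In the 10 members with 10 or more copies, the commonest step between neighbouring copies covered from 3 of 10 steps, near Mrtfb, to 9 of 9, near Il10ra. The array near Cck, the gene of the neuropeptide cholecystokinin, had 16 copies, of which 12 of 15 steps were 11 bp, and scored 1628 with ab1, 937 with ab2 and 326 with ab3. The array near Tulp1, a tubby-like protein gene, had 15 copies, of which 12 of 14 steps were 12 bp, and scored 1889, 842 and 303. An array near Ccr6, a chemokine receptor gene, had 10 copies and scored 3100, 1613 and 641.

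Other arrays with as many copies scored low. An array in an intron near Kdm6b, a histone demethylase gene, had 11 copies, of which 9 of 10 steps were 16 bp, and scored 135 with ab1 and 90.1 with ab2, with no ab3 peak. An array near Hid1, named after its values were seen, had 10 copies and scored 68.0 and 58.4, with no ab3 peak. Among the 10 arrays, 6 had an ab3 peak (31.3 to 83.2% by the Wilson interval), and ab1 scores ran from 68.0 to 3100. Copy number in such repeats can differ between BALB/c and the C57BL/6J reference, and reads in them are hard to place. Neither was tested.
Ccr6, chr17:8205270-8205469: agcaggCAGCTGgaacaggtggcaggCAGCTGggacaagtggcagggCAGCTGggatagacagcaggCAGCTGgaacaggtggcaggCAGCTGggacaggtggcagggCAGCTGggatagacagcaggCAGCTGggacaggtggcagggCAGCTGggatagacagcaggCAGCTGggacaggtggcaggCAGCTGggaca
Kdm6b, chr11:69460031-69460230: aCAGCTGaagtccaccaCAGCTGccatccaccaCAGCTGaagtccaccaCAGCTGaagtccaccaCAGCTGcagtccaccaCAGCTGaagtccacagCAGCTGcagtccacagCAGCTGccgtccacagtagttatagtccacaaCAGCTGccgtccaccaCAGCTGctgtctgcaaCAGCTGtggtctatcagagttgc

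Other E-box forms were allowed by the rule, and 41.1% of members had none. CACCTG, a form known from E proteins and from zinc-finger repressors of the Snail and Zeb families, stood in 21.5% of central windows against 14.1% of flanks. CAACTG was also more frequent in the centre, at 12.5% against 9.70%, as was CACGTG, the form of MYC and USF factors, at 4.07% against 2.90%. CAATTG was rarer in the centre, at 1.91% against 2.71%. The intervals of these 4 differences excluded 0. For CAAATG the difference was under 1 percentage point with an interval that included 0, and the same held for CAAGTG as well as for CACATG. An ab3 peak was present in 22.1% of the 1881 members with another E-box form and in 21% of the 1311 without.

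Motifs of other cortical factors were searched on both strands of the central windows. The motifs of the nuclear factor I (NFI) and MEIS families had the largest difference between centre and flank among the 16 searched. NFI factors control the timing of gliogenesis and neuronal maturation in the cortex, and MEIS proteins are homeodomain cofactors of the TALE class. Because TTGGCA (NFI) and TGACAG (MEIS) can share letters with CAGCTG, the class E-boxes were masked before counting. TTGGCA was then found in 22.8% of members (21.4 to 24.3) and in 9.02% of their flanks. It was found in 20.2% of CAGATG regions, 24.1% of CATATG regions and 15.4% of E-box-free regions, with flanks between 9.02% and 9.75%. The odds in members were 1.17 times those in CAGATG regions (1.05 to 1.29, adjusted p = 0.00726 over 21 contrasts, n = 3192 members) and 1.63 times those in E-box-free regions (1.41 to 1.87, adjusted p = 1.72e-10). With GC content as a covariate these ratios were 1.27 and 1.68. Against CATATG regions the ratio was 0.93 (0.79 to 1.1) and did not pass.

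Of the 893 TTGGCA matches in members, counted without masking, 6.27% overlapped a CAGCTG, 13.0% lay within 10 bp of the nearest one and 31.7% lay more than 60 bp away. Members with the NFI motif did not differ detectably in binding. An ab3 peak was present in 21.1% of the 729 members with TTGGCA and in 21.8% of the 2463 without, and the ab1 score ratio was 1.00 (0.92 to 1.08, adjusted p = 0.999, n = 3190 members).

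TGACAG was found in 22.3% of members after masking, against 13.6% of flanks. Unmasked, it stood in 30% of members, and the odds then were higher than in CAGATG regions (1.13, adjusted p = 0.0326, n = 19914 regions) and CATATG regions (1.42, adjusted p = 0.000157). After masking, neither contrast remained, at 0.97 (0.88 to 1.07) and 1.00 (0.84 to 1.18), and the contrast with E-box-free regions was 1.25 (1.1 to 1.43, adjusted p = 0.00246, n = 3192 members). The unmasked excess thus lay in matches that shared letters with CAGCTG. The joined form TGACAGCTG, picked out after its counts were seen, stood in 289 members (9.05%, 8.11 to 10.1). It took 3.70% of central hexamer ends (3.32 to 4.13) against 1.4% of flank hexamer ends (0.919 to 2.13). An ab3 peak was present in 22.8% of those 289 members (18.4 to 28.0) and in 21.5% of the others.

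The strongest member with the joined form and peaks of all 3 antibodies lay in an intron near Tcp10a and scored 3100, 2581 and 574, with the joined form on both strands. The next lay in an intron near Efcab5 and scored 3129, 1906 and 535. Capitals mark the joined form in these stretches, and all matches of CAGCTG and of the NFI and MEIS motifs in the windows at Lrpap1 and Plxna4.
Tcp10a, chr17:7292226-7292260: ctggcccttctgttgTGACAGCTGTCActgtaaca
Efcab5, chr11:77181081-77181119: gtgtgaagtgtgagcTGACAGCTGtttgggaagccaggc
Lrpap1, chr5:35139749-35139948: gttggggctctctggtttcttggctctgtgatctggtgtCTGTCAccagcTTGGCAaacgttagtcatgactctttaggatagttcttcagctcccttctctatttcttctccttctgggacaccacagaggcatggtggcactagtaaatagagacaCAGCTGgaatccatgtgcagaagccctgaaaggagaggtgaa
Plxna4, chr6:32702370-32702569: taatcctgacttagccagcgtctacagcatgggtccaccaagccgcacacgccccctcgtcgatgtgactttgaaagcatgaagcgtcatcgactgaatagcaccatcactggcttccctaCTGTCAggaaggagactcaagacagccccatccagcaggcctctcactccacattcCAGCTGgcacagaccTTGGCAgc

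GC-rich motifs were more frequent in members than in the other E-box classes, and so was GC content. GC content averaged 52.8% in members, 49.3% in CAGATG regions, 45.9% in CATATG regions and 52.1% in E-box-free regions. The SP/KLF motif GGGCGG stood in 7.86% of members, 4.85% of CAGATG regions, 2.16% of CATATG regions and 12.1% of E-box-free regions. The EBF motif CCCNNGGG stood in 7.21%, 5.28%, 3.53% and 8.30%. With GC content as a covariate, the excess of members over CAGATG regions was gone for both, with odds ratios of 0.94 for GGGCGG (adjusted p = 0.606, n = 3192 members) and 1.00 for CCCNNGGG (adjusted p = 0.986). The RFX motif GTTGCC was found in 8.96% of members against 5.62% of flanks, and its odds did not differ past the threshold from any other class after masking. The SOX motif ACAATG was rarer in the centre of members than in their flanks, at 8.18% against 10.9%. The homeobox motif TAATTA (6.11% against 5.40%) and the AP-1 motif TGANTCA (5.76% against 5.40%) differed from the flanks within intervals that included 0. Against E-box-free regions, the odds in members were 1.48 times as high for AP-1 (1.14 to 1.91, adjusted p = 0.00646, n = 3192 members) and 2.77 times as high for the POU octamer ATGCAAAT (1.56 to 4.9, adjusted p = 0.00149), which stood in 56 members (1.75%) and 15 E-box-free regions (0.642%). That class bars every CANNTG, and both motifs can share letters with one, the octamer whenever G follows it. These contrasts were therefore partly set by the definition of the class. In E-box-free regions AP-1 stood at 3.98% in the centre against 5.24% in flanks, and the octamer at 0.642% against 1.03%. With GC content as a covariate both contrasts with E-box-free regions still passed (1.52 and 3.68), and the octamer then also passed against CAGATG regions (1.56, adjusted p = 0.0304, n = 3192 members), where the ratio without the covariate was 1.12. In members the octamer stood at 1.75% in the centre against 1.33% in flanks, within an interval that included 0.

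**Figure D4:**
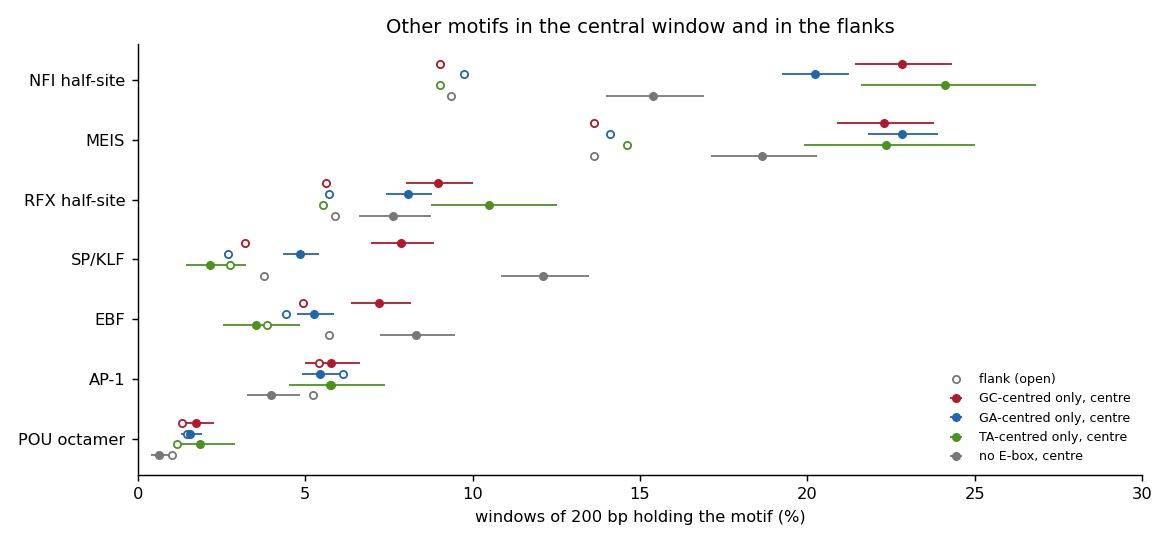
Percentage of 200-bp windows holding each of 7 motifs in the centre (filled, with 95% Wilson intervals) and in the flanks (open) of the 4 classes, with the class E-boxes masked. In members the NFI motif stands at 22.8% in the centre and 9.02% in the flanks, while the AP-1 and POU motifs differ little between centre and flank.

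Most members lay in genes, as did most regions of the other classes. Their midpoints fell inside an annotated transcript in 61% (59.3 to 62.7) against 58.8% of all 19914 regions, in introns in 54.9% (53.9% of all regions) and over exons in 6.17% (5.39 to 7.06, against 4.95% of all regions, 4.33% of CAGATG, 2.45% of CATATG and 5.90% of E-box-free regions, with no test). The share inside transcripts was 56.9% in CAGATG regions and 56.1% in CATATG regions, with odds ratios of 1.19 (adjusted p = 0.000619, n = 19914 regions) and 1.23 (adjusted p = 0.0155). It was 62.5% in E-box-free regions (odds ratio 0.94, 0.84 to 1.05), and that contrast did not pass. With GC content as a covariate the ratios fell to 1.11 and 1.07, and neither passed (adjusted p = 0.0614 and 0.503, n = 19914 regions). Upstream of the closest TSS lay 1466 members and downstream 1726, and the upstream share was 45.9% in members and 46.3% in all regions. The hexamer stood in repeat-marked sequence in 3.92% of members against 8.63% in CATATG regions (odds ratio 0.43, adjusted p = 4.73e-08, n = 3192 members). It was 4.90% in CAGATG regions, and that contrast did not pass (odds ratio 0.79, adjusted p = 0.0681, n = 3192 members).

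Another NEUROD2 region lay within 5000 bp of 36.7% of members and of 36.2% of all 19914 regions. The share was 34.3% in CAGATG regions (odds ratio 1.11, adjusted p = 0.0463, n = 19914 regions) and 40.8% in E-box-free regions (0.84, adjusted p = 0.00786). With GC content as a covariate the first of these did not pass (adjusted p = 0.263, n = 19914 regions) and the second did (adjusted p = 0.00458). Members with such a neighbour scored higher, by 1.27-fold with ab1 (1.18 to 1.36, adjusted p = 9.17e-09, n = 3190 members), 1.20-fold with ab2 (1.12 to 1.28, adjusted p = 4.63e-06, n = 3189) and 1.24-fold with ab3 (1.12 to 1.37, adjusted p = 0.000559, n = 690). With GC content and width in the model the ratios were 1.06, 1.02 and 1.1, and none passed (adjusted p = 0.0959, 0.583 and 0.0810, n = 3190, 3189 and 690 members). In the same model, members inside transcripts had 0.75 times the odds of an ab3 peak (0.62 to 0.90, adjusted p = 0.0115, n = 3192 members), 0.91 times the ab1 score and 0.90 times the ab2 score (adjusted p = 0.00762 and 0.00175). Per 10-fold greater distance from the TSS the odds of an ab3 peak were 1.33 times as high (1.06 to 1.67, adjusted p = 0.0424, n = 3192 members), the ab1 score 1.09 times and the ab2 score 1.12 times (adjusted p = 0.0424 and 0.00253). None of these 6 contrasts passed without the covariates. Shares on either side of the distance bounds of the rule are given as a description. An ab3 peak was present in 21.6% of the 88 members within 500 bp inside the near bound and in 20% of 135 otherwise like regions within 500 bp outside it. At the far bound it was present in 22.6% of 137 members within 5000 bp inside and in 27.1% of 85 like regions within 5000 bp outside. Regions whose only NeuroD-type E-box in reach was a CAGCTG at 100 to 150 bp from the midpoint, just outside the window, numbered 613, and 25% of them had an ab3 peak.

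Each member was assigned to the protein-coding gene with the closest TSS, which need not be a gene that it regulates. The closest TSS of any kind was protein-coding for 1183 members only, so the assigned gene can lie beyond a noncoding gene and beyond the 50000 bp of the rule. The distance to the assigned TSS had a median of 37988 bp, an upper quartile of 98079 bp and a maximum of 1.83e+06 bp. At least 1 member was assigned to 2321 of 21911 coding genes (10.6%), of which 1740 had 1 and 26 had 5 or more. Prok2, which encodes a secreted prokineticin, and Gli2, a transcriptional effector of hedgehog signalling, had the most, with 7 each.

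The 7 members at Gli2 were moderate, with ab1 scores from 141.9 to 799.2 and no ab3 peak. The 7 at Prok2 ran from 58.6 to 3100 with ab1, and only the highest, at chr6:99971108-99972191 with 3 CAGCTG, had an ab3 peak (438). All 7 lay between 107046 and 266012 bp from the Prok2 TSS. Sox4, a SOX factor of early neuronal differentiation, had 6 members from 74.2 to 3100, of which 2 had an ab3 peak. Galnt17, an N-acetylgalactosaminyltransferase gene, had 6 from 272 to 2539, also with 2. The 6 at Mycn, the neural MYC family member, were all weak, from 56.1 to 254.5, with none. Vrk1, Med27, Kdm8 and Zfp608 had 6 each, with 2, 1, 1 and 1 ab3 peaks. These genes also differed in how many regions of any class they gathered, from 14 at Gli2 and 15 at Med27 to 39 at Galnt17 and 54 at Zfp608. The strongest member near Kdm8, an array of 10 copies, was its only one with ab3.

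All 5 members assigned to Sulf2, which encodes an extracellular sulfatase that edits heparan sulfate, had peaks of all 3 antibodies. They scored 1722, 2101, 766, 3057 and 3084 with ab1, 682, 1580, 591, 1472 and 1631 with ab2, and 176, 414, 157, 126 and 421 with ab3. They lay between 50935 and 221872 bp upstream of the Sulf2 TSS, from chr2:166205969 to chr2:166378122, and 1 of them was in an intron of another transcript. Each had a single CAGCTG. Sulf2 was singled out after its values were seen, from 17 genes tied at 5 members. Of those 17, 5 genes had no ab3 peak at any member, among them Auts2, Zfp536 and Irf2bpl, and Sulf2 alone had one at every member. As 21.6% of all members had an ab3 peak, the lack of one at 5 members says little about a gene. The difference from the tied genes is a description and was not tested.

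**Figure D5:**
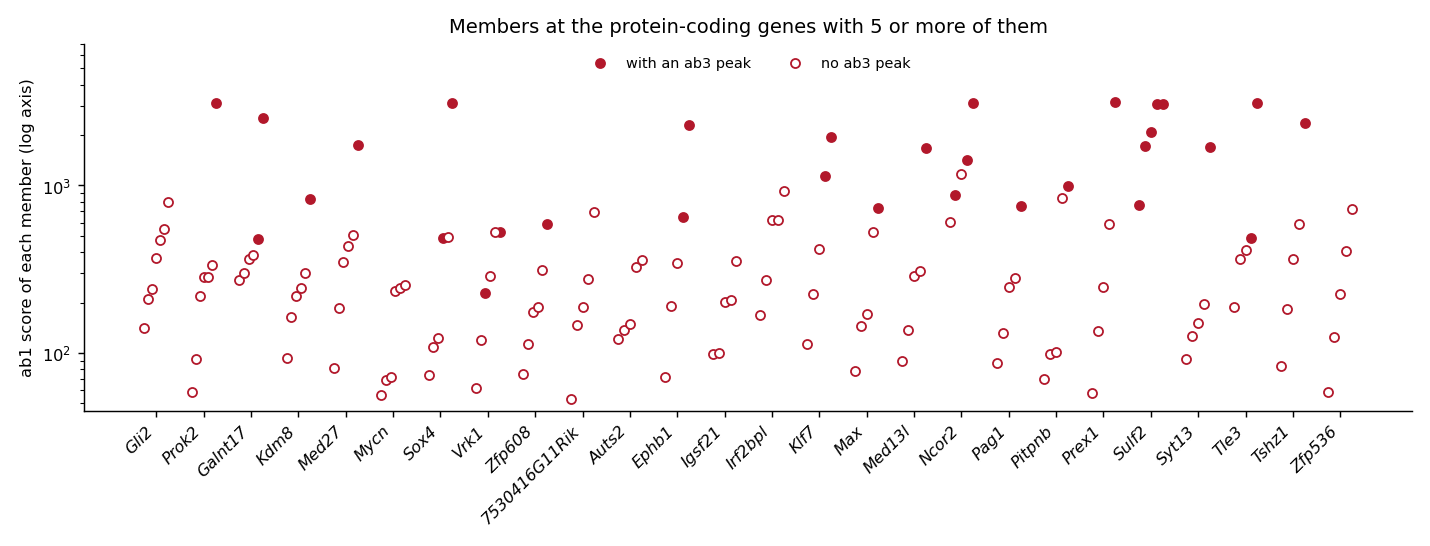
The ab1 score (log axis) of each member at the 26 protein-coding genes with 5 or more members, in order of the number of members and then by name, filled where the member also had an ab3 peak. All members are open at 7 of the genes, Gli2 and Mycn among them, and all are filled at Sulf2, where they lie between 766 and 3084. Over all members, 21.6% had an ab3 peak.

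Gene lists for cortical development were read against the background of 10.6%. The lists and the rule were chosen with results of these data known, and long genes and isolated genes gather more regions, so the counts are descriptions. Among Eph receptors and ephrins, contact-dependent guidance cues, 10 of 22 genes had a member, 21 members in all, or 18.8% of the 112 regions assigned to these genes against 16.0% of the 19914 regions. Over the 11 lists this share ran from 6.15% for the upper-layer genes, 6.25% for the subpallial genes and 7.81% for the Reelin pathway to 17.9% for the Notch pathway and 18.8% for the Eph list, beside 33.3% for microglia and endothelium, which rests on 6 regions. Ephb1 had 5 intronic members with ab1 scores of 342.8, 648.4, 191.4, 71.4 and 2296, of which the second and the fifth had an ab3 peak. Efnb1, a transmembrane ligand, had 3 members with ab1 scores of 60.5, 1179 and 835.8, and the last 2 had ab3 peaks near the lower limit of the list (51.0 and 54.5). Efnb2 had 4, of which the one with an ab1 score of 1206 had an ab3 peak. The members at Efnb2 lay far off, between 333065 and 1393670 bp downstream of its TSS.

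Among Slits, Robos, netrins and their receptors, 8 of 13 genes had a member. These 12 members were 13.6% of the 88 regions assigned to the genes, below the 16.0% over all 19914 regions. Slit1, a secreted repellent, had a member 11277 bp upstream that scored 3100, 1039 and 198. Robo2, a Slit receptor, had 3 intronic members with ab1 scores of 1972, 470.3 and 283.9, of which the first had an ab3 peak (151). Slit3 had 2, at 1240 and 177. Among semaphorins, plexins and neuropilins, 10 of 31 genes had a member, and the 15 members were 14.4% of 104 regions. Plxna4, a receptor of class 3 semaphorins, led with 3 members at ab1 scores of 2534, 145.8 and 1591.

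In the Reelin pathway, which guides radial migration, 4 of 13 genes had a member, and none had one when the closest TSS of any gene type was used. Fyn, the Src-family kinase that phosphorylates DAB1, had a member in an intron of a neighbouring transcript that scored 3100, 2776 and 331. The adaptor gene Dab1 had a member with 2 CAGCTG that scored 1245, 467 and 99.5. The receptor gene Lrp8 had 2 intronic members at 488.5 and 295.7 with ab1, and Cdk5r1, the activator of CDK5, had 1 at 622.2, all without ab3.

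Among bHLH factors and their partners, 6 of 17 genes had a member. These 10 members were 10.6% of the 94 regions assigned to the genes, against 16.0% of all 19914 regions. Id4 had 3 with ab1 scores of 3100, 65.2 and 641.1, of which the first and the last had an ab3 peak. The first lay 214778 bp upstream of the Id4 TSS. Neurod6, a paralogue of Neurod2, had 2 with ab1 scores of 172.5 and 1111, the stronger 4592 bp from the TSS. Nhlh1 had 2, at 1924 and 321.3. The E protein gene Tcf3 had 1 with 3 CAGCTG, which scored 316.1 and 205.4 without ab3. In the Notch pathway 5 of 19 genes had a member, and Hes1 alone had one with ab3, which scored 1669, 1002 and 193. That member lay 182093 bp upstream of the Hes1 TSS.

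Of the deep-layer identity genes 5 of 10 had a member, with 9 members in all, and of the upper-layer genes 4 of 10, with 4 members. These were 13.6% of 66 regions in the first list and 6.15% of 65 in the second, against 16.0% of all 19914 regions. Pcp4 had the strongest of the first list (1363, 463 and 60.6), and it was the only one of those 9 with an ab3 peak. Fezf2, which specifies subcerebral projection neurons, had 2 members with ab1 scores of 263.3 and 204.4, and Bcl11b had 1 at 64.7. In the second list Mef2c had the strongest (617.7 and 200.1), and none of the 4 had ab3. As 21.6% of all members had an ab3 peak, counts this small say little for either list. Of the radial glia and intermediate progenitor genes 4 of 12 had a member, with 12 members in all, or 16.4% of 73 regions. Sox2 had 4 members and Sox9 had 3, and Insm1, a factor of basal progenitors, had 3, the strongest at 1008 with ab1.

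Lists of genes that mark other cell types were read in the same way. The 16 subpallial and interneuron identity genes had 16 regions, and 1 of them was a member, at Gsx1, with scores of 227.8 and 76.7. The 11 microglia and endothelium genes had 6 regions, and 2 genes (18.2%, against the background of 10.6%) had a member, Cdh5 (125.6 and 52.6) and Flt1 (109.4 and 55.1). None of these 3 regions had an ab3 peak, a count that says little where 21.6% of all members had one. With the closest TSS of any gene type in place of coding genes, 27 genes of all lists had a member in place of 59, with 5 of 22 in the Eph list, 2 of 13 among Slits, Robos and netrins and 5 of 17 among bHLH factors.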

How the data were processed

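Peaks of 3 NEUROD2 ChIP-Seq libraries were used, 1 for each antibody. Reads were aligned by the authors to mm10 with Bowtie, and peaks were called with MACS against GFP libraries, with ab2 and ab3 sharing a control per the methods. The deposited score of a peak is 10 × −log10 of the MACS p-value, and it is not scaled between libraries. The GFP libraries were not analysed here, the read totals that the study gives were not used here, and no expression was measured in these files. Peaks on chromosomes 1 to 19, X and Y were used.

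Peaks sharing at least 1 bp were joined, and regions with at least 2 antibodies were kept. TSSs were taken from the longest-span transcript of each gene (GENCODE M21), and sequence from the GRCm38 reference, whose repeats are in lower case. Shares have Wilson intervals and their differences Newcombe intervals (95%), which cover counting error only. The presence of an ab3 peak was fitted by logistic regression and log10 scores by least squares with HC3 errors over all 19914 regions (statsmodels 0.14.6), with Benjamini-Hochberg adjustment within each family of contrasts and a threshold of 0.05. Masked motifs were fitted over members and the 3 other classes only. The merging, the classes and the fits across all regions were tested on simulated data. Named members were the 10 with the highest mean log10 score, the 5 with most CAGCTG, the leading member of each gene list, 3 of median score and the coding genes with most members, extended from 10 to 26 to keep all ties. The members, motifs and lists were chosen with earlier results of these data known. Alternatives concerned the score minimum, the overlap, the window, the TSS set, the distance bounds, covariates and leaving out each antibody. Their p-values were adjusted within each setting, over fewer contrasts than in the main family, so calls are not strictly alike. Masking and the joined motif were added after seeing the data.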

Additional observations from a re-analysis of the deposited data

How the results depend on the processing

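With peaks scoring at least 100, 1916 members remained, 15.8% of them with ab3. With TSSs of coding genes there were 2006 members, at 1 to 10 kb 1196 (20.2% with ab3), at 10 to 50 kb 1997, and with all 3 antibodies 685. A window of 400 bp gave 20.1% with ab3. Leaving out 1 antibody and requiring both others gave 672 to 3183 members, and taking every peak of ab1 alone or of ab2 alone as a region gave 12.6 to 18.9% with ab3.

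Against CAGATG regions, the odds ratio of an ab3 peak no longer passed with scores of at least 100 (0.973), a window of 100 bp (0.933), coding TSSs (0.871), 1 to 10 kb (0.891) or 10 to 50 kb (0.877). The ab2 ratio against the same class no longer passed under those settings either (0.982, 0.969, 0.953, 0.939 and 0.960), and ran from 0.949 to 0.996 without 1 antibody. The ab1 ratio, which never passed, turned to 1.02 with scores of at least 100, 1.01 with 100 bp and 1.00 at 10 to 50 kb, and ran from 0.988 to 1.04 without 1 antibody. The ab3 score ratio turned to 0.999 with 400 bp.

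Against CATATG regions, the ab1 ratio turned to 0.999 with the midpoint of the highest ab1 peak, 0.977 with 400 bp, 0.937 at 1 to 10 kb and 0.976 with GC content as a covariate. The ab2 ratio turned to 1.01 with coding TSSs, 1.02 at 10 to 50 kb and 1.01 with GC content, distance and width, and ran from 0.968 to 1.07 without 1 antibody. The ab3 score ratio turned to 0.974 at 1 to 10 kb, and the odds of an ab3 peak passed with 400 bp (0.784) and with every peak of ab1 or of ab2 alone as a region (0.826 to 0.830).

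Against E-box-free regions, the odds no longer passed with scores of at least 100 (0.891) and at 1 to 10 kb (0.805), and the ab2 ratio ran from 0.824 to 0.902 without 1 antibody. With GC content, distance and width, all turned, to 1.56 for the odds, 1.34 with ab1, 1.27 with ab2 and 1.11 with ab3. GC content and width, added together, also moved the contrasts of neighbours, copy number, outer bases, transcripts and distance among members. The cause of the other changes was not tested.

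After masking, added after seeing the data, the MEIS odds were 0.970 against CAGATG and 0.997 against CATATG regions. With masking and GC content, the NFI odds against CATATG regions were 1.1 and the SP/KLF odds against CAGATG regions 0.936. With the closest TSS of any type, 27 genes of the lists had a member in place of 59. Of 193 recomputed values other than single motifs, 145 kept their direction and their side of the threshold, or their size, among them the deficit of A beside CAGCTG. The others turned (18), lost (14) or gained (3) the call, or moved in size (13), and of 24 motif values 4 turned and 5 lost the call. No paired analysis was possible because only the NEUROD2 libraries have peak lists here and the replicate numbers were taken as those of the antibodies.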
